A study of Mus musculus with 13 samples.

Results

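HIF-1 is the transcription factor through which mammalian cells answer to low oxygen, and the data below describe Hif1a, the gene of its regulated subunit, with 9 of its target genes that lie outside glycolysis: Egln1, Egln3, Bnip3, Bnip3l, Ankrd37, Kdm3a, Ndrg1, Higd1a and Ero1l. The 10 genes were taken by symbol from a table of 55774 gene entries, and 10 of 10 were found and passed the filter on low counts that left 15781 genes for testing. They had been selected on their CPM (counts scaled to a common library size) in these same libraries, across the groups and within each batch day. Their differences between groups are therefore a description: no p-value is given for a member, and where members past the threshold of a fit over all genes are counted, the count stands beside the share of all genes and nothing is read from it. P-values are given for 72 other genes of the hypoxia pathway. Their lists were written with earlier results of these data known, so these p-values are not those of an independent test.

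The HIF-1α protein is made all the time and, while oxygen is present, is marked by prolyl hydroxylases of the Egln family and destroyed through the von Hippel-Lindau ubiquitin ligase. When oxygen falls, the protein survives, joins its partner Arnt and binds a short DNA core motif near its target genes. In T cells, antigen receptor and mTOR signals also raise HIF-1α, and it is known for its part in the metabolic change of activated cells and in the balance between Th17 and regulatory cells.

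BDC2.5 mice were the source of the T cells, a non-obese diabetic (NOD/ShiLtJ) line with the transgenes TcraBDC2.5 and TcrbBDC2.5, whose T cell receptor recognises an antigen of the pancreatic beta cell. All 13 libraries came from naive splenic CD4+ cells of females with this genotype. The cells-alone group had 4 libraries from untreated T cells, and the labels do not say whether these were cultured. T cells of the control-macrophage group (4 libraries) were kept for 96 h with islet macrophages of NOD mice given control buffer, and those of the STZ-macrophage group (5 libraries) with islet macrophages of NOD mice given a single low dose of streptozotocin (STZ), a toxin of beta cells. Donors of the macrophages received the injection when 4 weeks old, and their islets were collected 10 days after it, at 5.5 weeks. Macrophages were enriched with magnetic beads, and T cells were sorted after co-culture as live CD45+Thy1.2+CD4+ cells. Each library carries a batch label, day 1 or day 2: all cells-alone libraries, control-macrophage replicates 1, 2 and 4 and STZ-macrophage replicates 1 and 5 are of day 1, and control-macrophage replicate 3 and STZ-macrophage replicates 2, 3 and 4 are of day 2. The library names call the replicates biological without naming animals or cultures, so p-values measure the spread between these libraries.

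Library totals ranged from 17312119 to 61267763 estimated counts. The summed level of 11 T cell markers was 10100 to 29110 CPM over all 13 libraries and 0 of these markers were at 0, so the labelled cell type was met. The summed level of 14 macrophage markers was 2.95 to 13.2 CPM in the cells alone, 7.06 to 58.7 in the control-macrophage group and 23.0 to 112 in the STZ-macrophage group. STZ-macrophage replicates 1 and 5 stood apart from the other 3 libraries of their group. Over 11981 genes, their deviations from the group mean correlated with those of cells-alone replicate 2 (Pearson r = 0.677 and 0.53) and of control-macrophage replicate 2 (0.575 and 0.658), a description across genes, which are not independent; all 4 libraries are of day 1. These 2 libraries are also the only day 1 libraries of their group, so batch day and library cannot be told apart there, and the members' values are given by day.

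The core motif that HIF-1 binds is ACGTG or GCGTG, and the promoters show where these letters stand in the members. RefSeq promoter windows on GRCm38.p6 (250 bases before to 50 bases after the start site) were at hand for 8 of the 10 members; Bnip3l and Ndrg1 were not matched. Searched on both strands, ACGTG was found in 7 of 8 members and GCGTG in 6 of 8; every one of the 8 held at least 1 of them, for Kdm3a in 1 of its windows. Of all 32851 promoter windows, 19.6% held ACGTG, 32.4% held GCGTG and 43.8% held either. The 5 stretches below are shown because they hold the motif in Hif1a itself and in the 4 targets Egln3, Bnip3, Ankrd37 and Ero1l, whose levels differed most between the day 1 co-cultures beside Ndrg1. They are written on the strand of the gene, with capitals for the motif on either strand; adjoining or overlapping matches run together. The Hif1a stretch lies at chr12:73907712-73907821 (+), Egln3 at chr12:54204079-54204123 (-), Bnip3 at chr7:138909517-138909643 (-), Ankrd37 at chr8:45999851-46000100 (-) and Ero1l at chr14:45318611-45318720 (-).
Hif1a: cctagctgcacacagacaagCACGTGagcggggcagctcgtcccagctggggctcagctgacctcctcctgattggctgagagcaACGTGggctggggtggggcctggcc
Egln3: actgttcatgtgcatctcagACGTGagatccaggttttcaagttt
Bnip3: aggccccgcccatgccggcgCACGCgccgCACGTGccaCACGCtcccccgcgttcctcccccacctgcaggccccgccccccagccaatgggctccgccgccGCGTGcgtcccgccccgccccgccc
Ankrd37: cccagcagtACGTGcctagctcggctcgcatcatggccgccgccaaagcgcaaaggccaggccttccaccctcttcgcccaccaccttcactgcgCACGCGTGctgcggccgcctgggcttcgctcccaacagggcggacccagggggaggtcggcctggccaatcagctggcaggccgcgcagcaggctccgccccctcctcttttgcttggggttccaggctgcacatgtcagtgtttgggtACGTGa
Ero1l: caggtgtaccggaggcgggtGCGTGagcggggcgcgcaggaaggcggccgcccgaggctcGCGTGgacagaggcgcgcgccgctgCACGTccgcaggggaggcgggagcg

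In these stretches Hif1a carried a palindromic CACGTG, read as ACGTG on both strands, 135 bases before its start site, and a further ACGTG 70 bases before it. Egln3 had a single match, 229 bases before the start. Bnip3 had 5 matches, 4 of them between 117 and 99 bases before the start and 1 at 35 bases. A match describes the letters only and shows neither binding nor a cause of the levels below.

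Among the co-cultures, the day 1 T cells with STZ macrophages had the highest levels of 9 of the 10 members; Kdm3a and Bnip3l were higher still in the cells alone. In these 9 of 10 genes both day 1 STZ-macrophage libraries were above the 7 other co-cultures, as was the case for 17.5% of all genes tested, and in 10 of 10 they were above the 3 day 1 control-macrophage libraries (24.1% of all genes tested). The exception among the 7 was Higd1a, which was highest in the day 2 control library. In the day 2 co-cultures, 5 members were above the single control library in all 3 STZ-macrophage libraries (31.2% of all genes tested) and 5 were below it (46.2%). Since these values took part in the choice of the genes, nothing is read from the counts. Levels below are CPM scaled by the TMM factors of the libraries, and errors are SD over libraries.

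**Figure D1:**
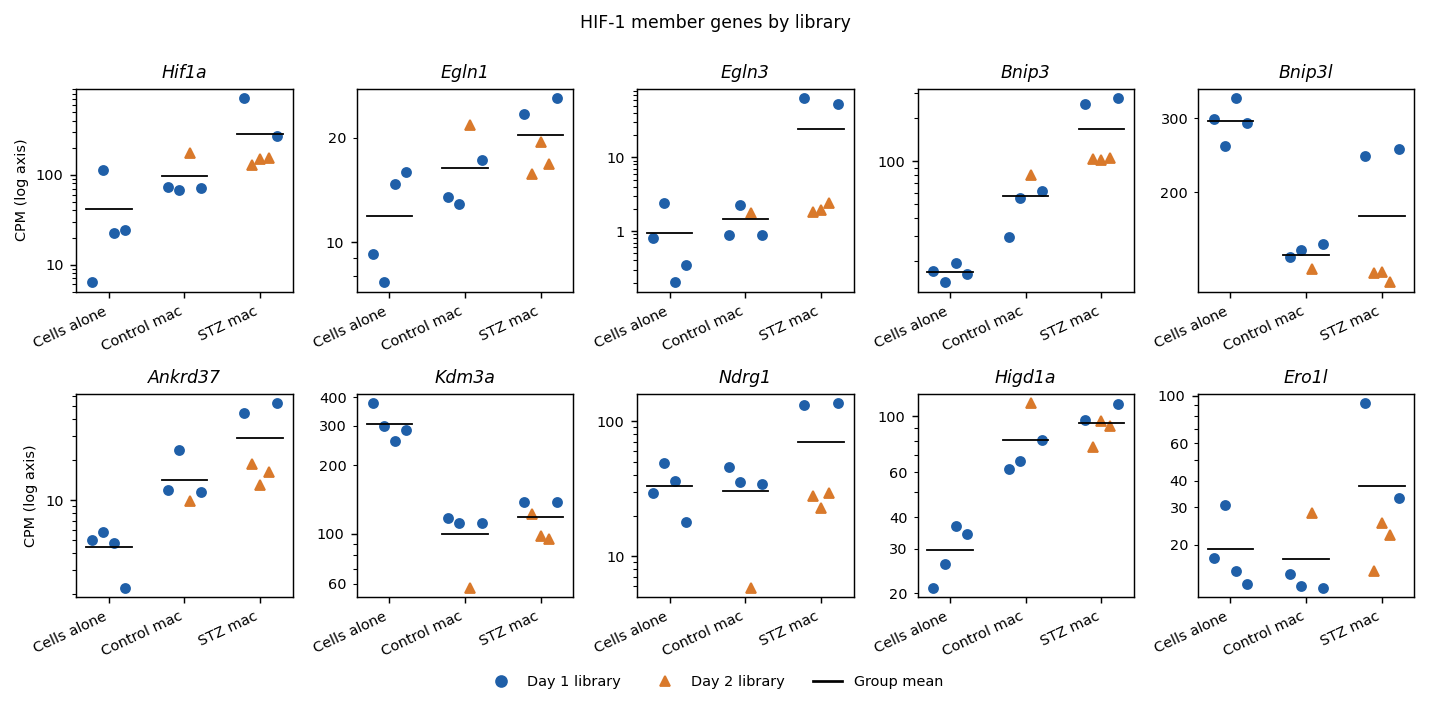
CPM of each of the 10 members (log axis, 1 panel a gene) in the 13 libraries of T cells alone, with control macrophages (Control mac) and with STZ macrophages (STZ mac); circles are day 1 libraries, triangles day 2 libraries and the line is the group mean. The 2 day 1 STZ-macrophage libraries lie above the 3 day 1 control libraries in every panel, and for Egln3 they sit at 64.1 and 52.7 CPM against at most 2.40 in the other 11.

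Hif1a (chr12:73901375-73947530, GRCm38) encodes the oxygen-regulated subunit of HIF-1. Its level in the cells alone was 6.33, 112, 22.4 and 24.4 CPM in replicates 1 to 4, so 1 library was far above the others. With control macrophages it was 73.4, 67.3 and 71.8 CPM on day 1 and 176 on day 2. With STZ macrophages it was 719 and 270.3 CPM on day 1 and 127, 150.4 and 153 on day 2. The day 1 STZ-macrophage libraries thus lay above all others, while the 3 of day 2 lay below the control library of their own day. The log2 fold change, STZ over control macrophages, was 2.80 (SE 0.84) on day 1 and -0.30 (SE 1.03) on day 2. Both co-cultures had higher means than the cells alone, at 97.2 ± 52.7 CPM (n = 4) and 284 ± 249 (n = 5) against 41.3 ± 47.9 (n = 4), but cells-alone replicate 2 was above the 3 day 1 control-macrophage libraries.

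The prolyl hydroxylases close a loop, since HIF-1 raises Egln1 and Egln3 and their proteins mark HIF-1α for destruction. Egln1 (chr8:124908587-124949324) encodes PHD2, the main oxygen sensor. It was measured at 9.24, 7.65, 14.7 and 16.0 CPM in the cells alone. The control-macrophage libraries had 13.5, 12.9 and 17.2 CPM on day 1 and 21.7 on day 2, and the STZ-macrophage libraries 23.5 and 26.1 on day 1 and 15.7, 19.5 and 16.8 on day 2. The range of Egln1 over the co-cultures was narrow, and on day 1 the groups did not overlap. Its log2 fold change, STZ over control, was 0.77 (SE 0.35) on day 1 and -0.32 (SE 0.44) on day 2.

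Egln3 (chr12:54178981-54203860), which encodes PHD3, had the widest range of the 10 as a ratio of highest to lowest library, while in CPM that of Hif1a was wider. It was close to absent in the cells alone, at 0.798, 2.40, 0.201 and 0.351 CPM. With control macrophages it was 0.896, 2.23 and 0.890 CPM on day 1 and 1.76 on day 2. The day 1 STZ-macrophage libraries had 64.1 and 52.7 CPM, and those of day 2 had 1.83, 1.95 and 2.37. High Egln3 was thus seen in 2 libraries, and in the other 11 it stayed at 2.40 CPM or less. The day 1 log2 fold change, STZ over control, was 5.43 (SE 0.87), and that of day 2 was 0.22 (SE 1.03). Within the STZ-macrophage group the day 1 mean was 28.5 times the day 2 mean.

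Bnip3 and Bnip3l (also called Nix) are outer mitochondrial membrane proteins that draw the autophagy machinery to mitochondria. Bnip3 (chr7:138890836-138909519) had 17.0, 14.2, 19.4 and 16.3 CPM in the cells alone. It had 29.5, 55.2 and 62.2 CPM with control macrophages on day 1 and 80.3 on day 2. With STZ macrophages it had 251 and 277 CPM on day 1 and 104, 101 and 104 on day 2. This was the member whose 3 groups did not overlap at all: every co-culture was above every cells-alone library, and every STZ-macrophage library was above every control-macrophage library, also within each day. Over all genes tested, 2.46% had all STZ-macrophage libraries above all control-macrophage libraries, and 22.2% and 21.7% had all control-macrophage and all STZ-macrophage libraries above all cells-alone libraries. The log2 fold change of Bnip3, STZ over control, was 2.43 (SE 0.28) on day 1 and 0.36 (SE 0.36) on day 2. The antisense gene Gm45507 covers 22.3% of the exonic bases of Bnip3, and the library kit does not keep the strand; reads counted to Gm45507 were 0.267 to 3.72 CPM in the STZ-macrophage group.

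Bnip3l (chr14:66985239-67008877) went the other way between cells alone and co-culture. The cells alone had 298, 258, 335 and 292 CPM. The control-macrophage libraries had 140.4, 146 and 150.4 CPM on day 1 and 131 on day 2. With STZ macrophages it had 243 and 253 CPM on day 1 against 128, 129 and 122 on day 2. Day 1 STZ-macrophage libraries thus stood between the cells alone and the other co-cultures, with a log2 fold change over the day 1 controls of 0.77 (SE 0.17) and of -0.05 (SE 0.21) on day 2. A transcribed pseudogene, Bnip3l-ps, was counted at 50.6 to 145 CPM over the 13 libraries, so the split of reads between it and Bnip3l is uncertain.

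**Figure D2:**
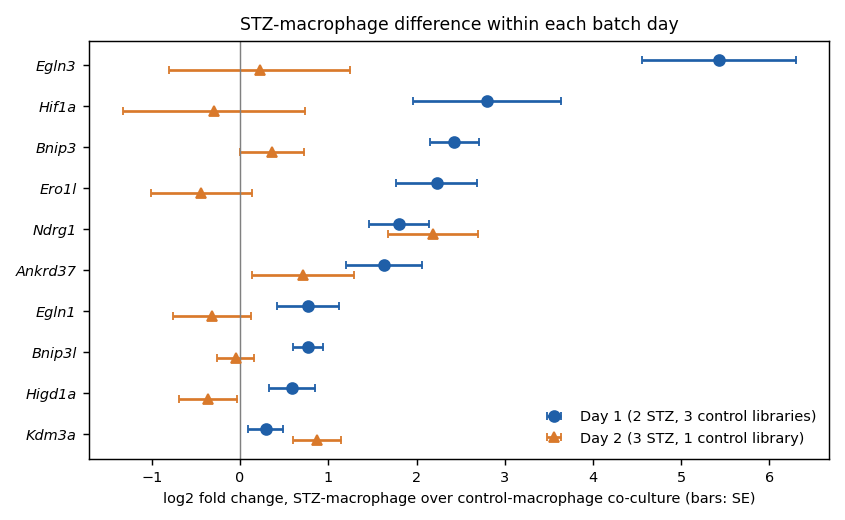
Log2 fold change of each member, STZ-macrophage over control-macrophage co-culture, within day 1 (circles, 2 against 3 libraries) and within day 2 (triangles, 3 against 1 library), with bars of 1 SE; members are ordered by the day 1 value. Day 1 values run from 0.29 for Kdm3a to 5.43 for Egln3 and are all above 0, and day 2 values run from -0.44 for Ero1l to 2.19 for Ndrg1.

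Ankrd37 (chr8:45996902-46005707) encodes a small ankyrin-repeat protein and is a direct HIF-1 target. It was at 5.07, 5.82, 4.81 and 2.22 CPM in the cells alone. Control-macrophage libraries had 11.9, 23.5 and 11.5 CPM on day 1 and 9.75 on day 2, and STZ-macrophage libraries 44.4 and 52.8 on day 1 and 18.7, 13 and 16.1 on day 2. Every co-culture was above every cells-alone library, and within each day every STZ-macrophage library was above every control, as for 5 of 10 members and 12.6% of all genes tested. Its log2 fold change, STZ over control, was 1.63 (SE 0.43) on day 1 and 0.71 (SE 0.58) on day 2. Lrp2bp on the opposite strand covers 22.7% of its exonic bases and was counted at 1.03 CPM or less. Ufsp2, also opposite, covers 3.7% and was counted at 64.8 to 166 CPM in the co-cultures, above Ankrd37 itself, and without strand the reads of the shared bases cannot be told apart.

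Kdm3a (chr6:71588972-71632990), a HIF-1 target that encodes a histone H3 lysine 9 demethylase, was highest in the cells alone. There it had 377, 299.5, 257 and 286 CPM. With control macrophages it had 117, 112 and 111 CPM on day 1 and 57.7 on day 2. With STZ macrophages it had 138 and 138 CPM on day 1 and 123, 97.97 and 94.7 on day 2. No co-culture reached the lowest cells-alone library; of all genes tested, 17.7% had all control-macrophage and 17.9% all STZ-macrophage libraries below the cells alone. The difference between the macrophage groups was small on day 1, with a log2 fold change of 0.29 (SE 0.20), and 0.87 (SE 0.27) was seen on day 2, where it rests on the low level of 1 control library.

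Ndrg1 (chr15:66929318-66969640) encodes a stress-responsive cytoplasmic protein that in T cells is known as a factor of anergy. The cells alone had 29.2, 48.7, 36.0 and 18.1 CPM. Control-macrophage libraries had 45.8, 35.4 and 34.0 CPM on day 1 and 5.86 on day 2. STZ-macrophage libraries had 132 and 136 CPM on day 1 and 28.1, 22.8 and 29.4 on day 2. Ndrg1 was above the control of the same day in all 5 STZ-macrophage libraries, by 1.80 (SE 0.34) on the log2 scale on day 1 and by 2.19 (SE 0.51) on day 2, the values closest to each other among the larger differences. The day 2 value rests on the low level of 1 control library, 5.86 CPM against 34.0 to 45.8 in the day 1 controls. Yet the day 2 STZ-macrophage libraries were below the day 1 controls, so the groups overlap when the days are joined.

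Higd1a (chr9:121848563-121858362) encodes a mitochondrial inner membrane protein that helps respiratory complexes assemble and work in low oxygen. It was lowest in the cells alone, at 21.1, 26.0, 36.9 and 34.3 CPM. With control macrophages it had 61.8, 66.3 and 80.6 CPM on day 1 and 113 on day 2. With STZ macrophages it had 96.7 and 112 CPM on day 1 and 75.7, 95.4 and 91.6 on day 2. The step from cells alone to co-culture, 29.6 ± 7.35 against 80.3 ± 23.0 CPM (n = 4 each), was larger than that between the macrophage groups. Its log2 fold change, STZ over control, was 0.59 (SE 0.26) on day 1 and -0.36 (SE 0.33) on day 2. The antisense gene Gm47112 covers 22.5% of its exonic bases and was counted at 1.52 CPM or less.

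Ero1l (chr14:45283087-45318771), now named Ero1a, encodes the oxidase that makes disulfide bonds in the endoplasmic reticulum. It was at 17.4, 30.8, 15.1 and 13.1 CPM in the cells alone. With control macrophages it was 14.7, 12.8 and 12.6 CPM on day 1 and 28.3 on day 2, and with STZ macrophages 92.3 and 33.2 on day 1 and 15.1, 25.3 and 22.4 on day 2. A single library, STZ-macrophage replicate 1, set most of its range. The log2 fold change, STZ over control, was 2.23 (SE 0.46) on day 1 and -0.44 (SE 0.57) on day 2.

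Levels of different genes were compared per kilobase of exon. In the cells alone the order was led by Bnip3l at 76.7 ± 8.21 CPM per kb (n = 4) and Kdm3a at 37.1 ± 6.24, which did not overlap each other or the rest. Higd1a, Bnip3, Hif1a, Ndrg1, Ero1l, Egln1 and Ankrd37 followed between 9.73 and 2.91 CPM per kb, with neighbours that overlapped in range, and Egln3 was last at 0.352 ± 0.378. With control macrophages Bnip3l was still first at 36.8 ± 2.16 CPM per kb, and its range overlapped that of Higd1a at 26.4 ± 7.55 and of Bnip3 at 25.1 ± 9.30. With STZ macrophages Bnip3 had the highest mean, 73.9 ± 39.1 CPM per kb (n = 5), followed by Hif1a at 48.2 ± 42.3 and Bnip3l at 45.4 ± 17.3, and all 3 ranges overlapped. Egln1 had the lowest mean there, 5.66 ± 1.23 CPM per kb, but Egln3, Ero1l and Ndrg1 overlapped it and reached lower values in single libraries, 0.687, 2.85 and 3.46.

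Joined over both days, with batch day as a term, the log2 fold change of STZ over control macrophages was positive for 10 of 10 members, with a median of 1.18 beside -0.13 over all genes tested. It ranged from 0.21 (SE 0.23) for Higd1a to 3.18 (SE 1.09) for Egln3. Of all genes tested, 0.323% were called at an adjusted p below 0.05 by edgeR's quasi-likelihood test, and 1 of 10 members, Ndrg1, was among them; nothing is read from this count, since the members were selected on these values. No member was called on leaving out any 1 of control-macrophage replicates 1, 2 and 4 or STZ-macrophage replicates 1, 2, 4 and 5. Of all genes, these fits called only 4, 6 and 0 and, in the same order, 0, 8, 5 and 0. Nothing particular to the members is read from the lost call. Without STZ-macrophage replicates 1 and 5, only day 2 libraries of that group are left. With the day term, the value then rests on the 1 day 2 control library, so it repeats the day 2 difference and is no separate result. It was positive for 5 members and negative for 5: that of Hif1a was -0.29 (SE 1.02) and that of Ndrg1 2.20 (SE 0.56). Within day 1 the median of the members was 1.72 and 2 of 10 were called, Egln3 and Bnip3, beside 0.215% of all genes, a count from which nothing is read for the same reason. Within day 2 the median of the members was 0.08, a value that rests on 1 control library. In a bulk library, fewer cells that express a gene and less RNA per cell cannot be told apart.

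The members were also uneven against the cells alone. With control macrophages, 3 of 10 were called higher (Bnip3, Ankrd37 and Higd1a) and 2 lower (Bnip3l and Kdm3a), beside 45% of all genes called (23.1% higher, 22% lower). With STZ macrophages, 6 were called higher (Hif1a, Egln3, Bnip3, Ankrd37, Ndrg1 and Higd1a) and Kdm3a lower, beside 43.1% of all genes (20.8% higher, 22.3% lower). Without STZ-macrophage replicates 1 and 5 the latter count fell from 7 to 4. All cells-alone libraries are of day 1, so the day term in both comparisons rests on the co-cultures. For Egln3 and Ndrg1 the day 2 STZ-macrophage libraries, at 1.83 to 2.37 and 22.8 to 29.4 CPM, lay within the cells-alone ranges. Those ranges were 0.201 to 2.40 and 18.1 to 48.7 CPM. Both comparisons share the cells-alone libraries, and nothing is read from these counts, since levels against the cells alone also took part in the selection.

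The spread of the members followed single libraries in each group. Among the 9 co-cultures, STZ-macrophage replicate 5 held the highest or second highest level of 10 members and replicate 1 that of 9. Within the STZ-macrophage group both day 1 libraries were above all 3 of day 2 for 10 of 10 members, as was seen for 26.1% of all genes tested; the ratio of the day means ran from 1.19 for Higd1a to 28.5 for Egln3, with 5.0 for Ndrg1, 3.45 for Hif1a and 3.05 for Ankrd37. In the control-macrophage group the day 2 library was the highest for Hif1a, Egln1, Bnip3, Higd1a and Ero1l and the lowest for Bnip3l, Ankrd37, Kdm3a and Ndrg1, so that the days did not order the members alike in both groups. Among the cells alone, replicate 2 was the highest for 5 members (Hif1a, Egln3, Ankrd37, Ndrg1 and Ero1l) and the lowest for 3 (Egln1, Bnip3 and Bnip3l). The summed macrophage markers did not follow this order: they were 23.0 and 27.7 CPM in STZ-macrophage replicates 1 and 5, where the members were highest, and 29.4, 106 and 112 CPM in replicates 2, 3 and 4. The summed T cell markers were lowest where the members were highest: replicates 1 and 5 had 11840 and 12840 CPM, and the other 7 co-cultures had 14720 to 29110. Summed CD8 T and NK cell markers were likewise lowest of the 9 co-cultures there, at 11.4 and 12.3 CPM. The part of these differences in the members' levels was not tested. Islet endocrine markers reached 163 and 142 CPM in STZ-macrophage replicates 2 and 4 and 3.33 CPM or less in the other 11 libraries.

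**Figure D3:**
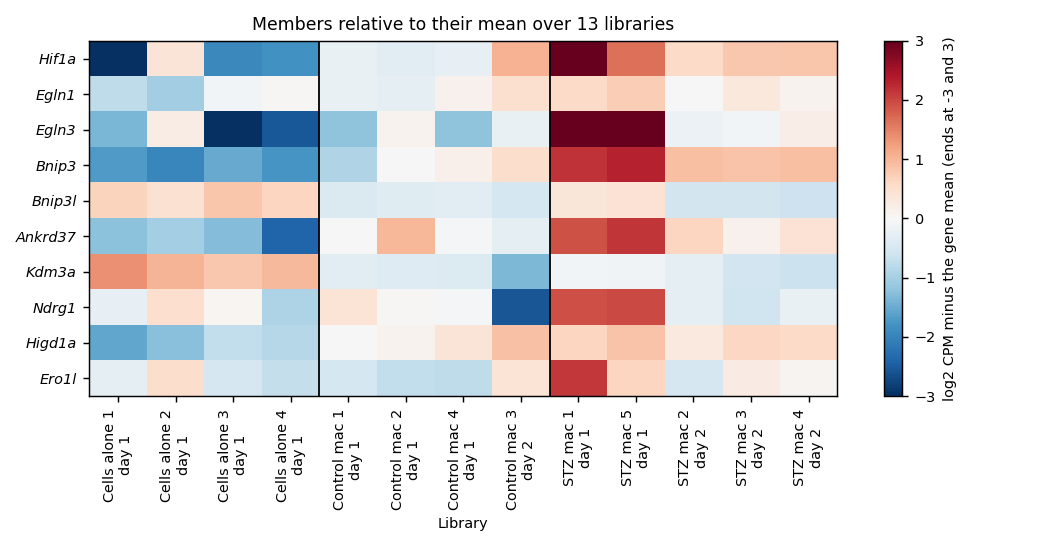
Log2 CPM of each member (rows) minus its mean over the 13 libraries (columns, by group and day), with red for higher and blue for lower and colours ending at -3 and 3. Bnip3 and Ankrd37 are blue in all 4 cells-alone libraries and reddest in STZ-macrophage replicates 1 and 5, while Kdm3a and Bnip3l are reddest in the cells alone.

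The genes most like the members over the 9 co-cultures were sought among 7334 genes of at least moderate level, by the root mean square difference between a gene's standardised log2 CPM and the mean standardised profile of the members. The 5 closest were Mthfd1l (0.216), Dhps (0.220), Slc3a2 (0.242), Dlat (0.242) and Ubxn4 (0.243), against a median of 1.40 over the genes compared. Mthfd1l, a mitochondrial enzyme of one-carbon metabolism, had 12.2 ± 11.04 CPM in the cells alone (n = 4), 14.1 ± 2.09 with control macrophages (n = 4) and 48.1 ± 42.6 with STZ macrophages (n = 5). Slc3a2, the heavy chain of large amino acid transporters, had 30.6 ± 41.2, 13.6 ± 4.28 and 43.5 ± 37.7 CPM in the same order. Of the members themselves Egln3 was the closest to their mean profile (0.239) and Kdm3a the farthest (0.869).

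Hypoxia pathway genes outside the members were tested in the same fit, in 4 lists: regulators of HIF, other hypoxia targets, partners in mitophagy and paralogues of the members. Of their 82 genes in the table, 72 passed the filter. STZ over control macrophages, 2 of 72 were called higher and 0 lower by edgeR's quasi-likelihood test (26 had an unadjusted p below 0.05), beside 0.152% of all genes called higher, 0.171% lower and 22.8% with such an unadjusted p. Both genes called by edgeR were in the list of other hypoxia targets. DESeq2 called 10 of the 72, beside 650 of all genes.

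The other hypoxia targets numbered 29 tested genes. P4ha1, a collagen prolyl 4-hydroxylase subunit, rose with STZ macrophages by a log2 fold change of 1.01 (SE 0.16, edgeR adjusted p = 0.0241): it had 271 and 297 CPM on day 1 against 128, 155 and 144.5 in the controls, and 199, 165 and 177 on day 2 against 87.7. Mxi1, a Max partner that opposes Myc, rose by 1.84 (SE 0.33, edgeR adjusted p = 0.0437), with 12.9 and 14.9 CPM on day 1 against 3.00, 3.04 and 3.86, and 7.96, 5.84 and 8.48 on day 2 against 2.65. In both genes every STZ-macrophage library was above every control-macrophage library. Each was called in 12 of 24 alternatives, and the call was lost on leaving out control-macrophage replicate 1, 2 or 4 or STZ-macrophage replicate 1, 2, 4 or 5, and for Mxi1 also replicate 3. Both calls were also lost with no day term and with a block for replicate number. They were lost too without STZ-macrophage replicates 2 and 4 together, or 1 and 5 together. Over these 24 settings the edgeR, DESeq2 or limma adjusted p ran from 5.18e-10 to 0.554 for P4ha1 and from 2.12e-06 to 0.554 for Mxi1, with log2 fold changes of 0.78 to 1.21 and 1.49 to 2.23. Without STZ-macrophage replicates 1 and 5 together the log2 fold changes were 1.05 and 1.49. These again rest on the 1 day 2 control library and repeat the day 2 differences. Over the list, the log2 fold change was positive for 24 of 29 genes, with a median of 1.02 beside -0.13 over all genes. The list's median was 1.27 within day 1 and 0.09 within day 2. With 2 of 29 called, the list as a whole is described and not tested.

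Within that list, 3 genes with wide ranges are named after their values were seen. Ddit4, an mTORC1 inhibitor, differed between STZ and control macrophages by 3.57 (day 1) and 0.97 (day 2) on the log2 scale, Ak4, a mitochondrial adenylate kinase, by 5.48 and 0.31, and Fam162a, a mitochondrial protein, by 2.16 and 1.43. None of these 3 was called over both days by edgeR (adjusted p = 0.159, 0.190 and 0.111), and Fam162a had 97.1 ± 59.0 CPM with STZ macrophages (n = 5) and 32.1 ± 11.8 with control macrophages (n = 4). The abundant targets Tfrc, the transferrin receptor, and Bhlhe40, a transcriptional repressor of activated T cells, rose in both co-cultures against the cells alone. Tfrc went from 33.6 ± 22.6 CPM to 1848 ± 981 with control macrophages, a log2 fold change of 5.38 (SE 0.45, edgeR adjusted p = 2.09e-06), and Bhlhe40 from 2.60 ± 2.09 to 229 ± 84.8 CPM, a log2 fold change of 6.26 (SE 0.52, edgeR adjusted p = 1.76e-06). Between the macrophage groups Tfrc differed by -0.73 (SE 0.37, edgeR adjusted p = 0.250) and Bhlhe40 by 1.04 (SE 0.40, edgeR adjusted p = 0.179). Mif, an inflammatory cytokine, had 35.2 ± 24.6, 137 ± 82.0 and 276 ± 59.4 CPM in the cells alone, control-macrophage and STZ-macrophage groups, with a log2 fold change between the last of 1.75 (SE 0.67, edgeR adjusted p = 0.176), which was 0.91 within day 1 and 3.52 within day 2. The day 2 value of Mif rests on 1 low control library, 20.9 CPM against 139.8 to 207.5 in the day 1 controls. Against the cells alone, 9 targets were called higher and 4 lower with control macrophages, and 13 higher and 3 lower with STZ macrophages, of 29 tested. Over all genes, 23.1% were called higher and 22% lower in the first of these comparisons and 20.8% and 22.3% in the other.

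**Figure D4:**
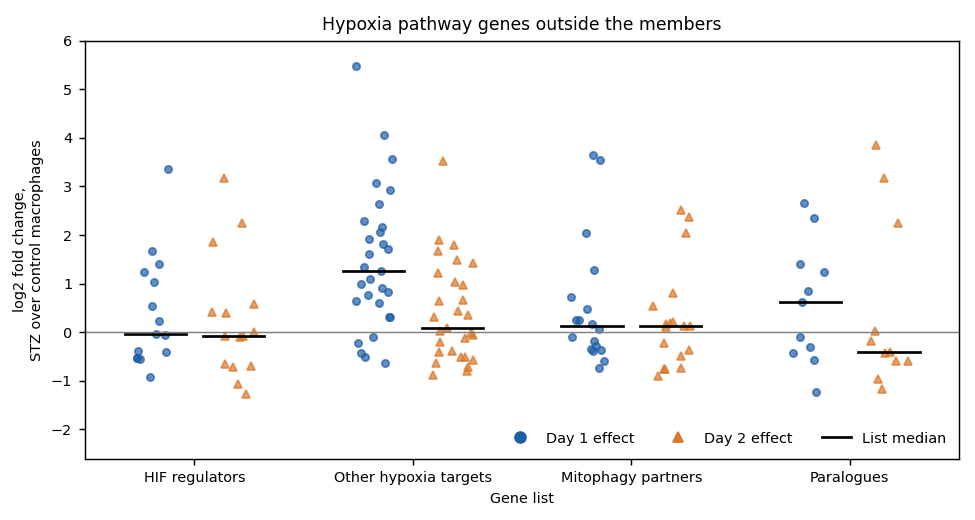
Log2 fold change, STZ-macrophage over control-macrophage co-culture, of each tested gene of 4 hypoxia pathway lists, within day 1 (circles) and day 2 (triangles); lines are list medians, and Arnt2, without counts in the controls, is left out. The medians of the other hypoxia targets are 1.27 on day 1 and 0.09 on day 2, and those of the HIF regulators are -0.04 and -0.07.

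Among the regulators of HIF no gene passed the test between the macrophage groups. Of 16 tested, 0 were called between STZ and control macrophages by edgeR (6 had an unadjusted p below 0.05, DESeq2 called 0), and the median log2 fold change was -0.01. Arnt, the partner of HIF-1α, had 83.9 ± 23.4 CPM with control and 74.0 ± 13.1 with STZ macrophages, a log2 fold change of -0.13 (SE 0.27, edgeR adjusted p = 0.775), with -0.53 within day 1 and 0.58 within day 2. Rbx1, Eloc and Elob, subunits of the von Hippel-Lindau ligase, had log2 fold changes of -0.60, -0.51 and 0.11 (edgeR adjusted p = 0.163, 0.218 and 0.741). Vhl itself, named after its values were seen, had one of 1.92 (SE 0.73, edgeR adjusted p = 0.175). Its value was 3.37 within day 1 and -0.1 within day 2. Over the list 8 of 16 values were positive and 8 negative, and so they were within day 1. Siah1a, a ubiquitin ligase that acts on the prolyl hydroxylases, fell by 2.37 on the log2 scale from the cells alone to the control-macrophage group (SE 0.33, edgeR adjusted p = 0.000111), from 19.2 ± 8.29 to 3.64 ± 0.323 CPM, and was at 1.81 ± 0.221 with STZ macrophages (log2 fold change from the controls -0.98, SE 0.31, edgeR adjusted p = 0.153). Arnt2, a second Arnt gene, had 0 counts in the cells alone and in the control-macrophage group and was at 0.172 to 0.686 CPM in the 5 STZ-macrophage libraries. With 0 counts elsewhere, Arnt2 passed the filter on low counts only through the STZ-macrophage group. Pooled over that group's libraries, with 100 counts, it was at least 26.0-fold above a floor of 3 counts over the control group. Its edgeR adjusted p was 0.102. Against the cells alone, 3 regulators were called higher and 5 lower with control macrophages, and 3 higher and 4 lower with STZ macrophages, of 16 tested, beside the same shares of all genes (23.1% and 22%, and 20.8% and 22.3%).

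Partners of Bnip3 and Bnip3l in mitophagy were 18 tested genes, and 0 were called between the macrophage groups by edgeR (4 had an unadjusted p below 0.05, DESeq2 called 1), with a median log2 fold change of 0.22. Map1lc3b, the LC3 protein that both receptors bind, had 392 ± 98.2 CPM in the cells alone, 204 ± 26.3 with control and 143 ± 5.76 with STZ macrophages. It fell by 0.96 on the log2 scale from the cells alone to the control-macrophage group (SE 0.19, edgeR adjusted p = 0.00153), and its further difference of -0.53 with STZ macrophages was not called (SE 0.18, edgeR adjusted p = 0.162). Sqstm1, the p62 cargo receptor, ranged from 10.6 to 207 CPM among the STZ-macrophage libraries, with log2 fold changes over the controls of 3.55 (day 1) and 0.17 (day 2). Fkbp8, Becn1 and Bcl2 had log2 fold changes over both days of 1.34, 0.97 and 0.56 (edgeR adjusted p = 0.166, 0.250 and 0.278), but the days differed in size or sign: 0.72 and 2.52 for Fkbp8, 0.26 and 2.37 for Becn1 and 1.29 and -0.48 for Bcl2 on day 1 and day 2. The day 2 values of Fkbp8 and Becn1 rest on 1 low control library, at 29.5 and 43.5 CPM. The day 1 controls had at least 140.3 and 186.4 CPM. With STZ macrophages both means were lower on day 2 than on day 1, at 168.9 against 297.3 and 225.4 against 274.9 CPM. Tax1bp1, another cargo receptor, had one of 0.08 (edgeR adjusted p = 0.721). Of this list, 3 genes were called higher and 7 lower with control macrophages against the cells alone, and 4 higher and 5 lower with STZ macrophages; of all genes, 23.1% and 22%, and 20.8% and 22.3%, were so called.

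Paralogues of the members, 11 tested genes, gave 0 calls between the macrophage groups by edgeR (4 had an unadjusted p below 0.05, DESeq2 called 1) and a median log2 fold change of 0.10. Ndrg3, a relative of Ndrg1, was at 284 ± 67.9 CPM with control and 142 ± 31.8 with STZ macrophages, a log2 fold change of -1.20 (SE 0.24, edgeR adjusted p = 0.0553), and -1.23 and -1.16 within day 1 and day 2, while Ndrg2 had 46.5 ± 7.19 and 49.1 ± 16.7 CPM, with 0.63 and -0.59 within the days. Epas1, which encodes HIF-2α, had 2.13 ± 1.31 and 4.10 ± 2.22 CPM in these groups (log2 fold change 1.83, SE 0.74, edgeR adjusted p = 0.189), with 1.23 within day 1 and 3.18 within day 2. Its lone day 2 control library was low, at 0.278 CPM against 2.28 to 3.34 in the day 1 controls. Higd2a, Jmjd1c and Bnip2 differed by -0.50, -0.52 and 1.55 (edgeR adjusted p = 0.179, 0.270 and 0.206). The value of Bnip2 was 2.66 within day 1 and 0.03 within day 2. Jmjd1c, a relative of Kdm3a, fell by 1.18 on the log2 scale from the cells alone to the control-macrophage group (SE 0.28, edgeR adjusted p = 0.00480). In that comparison 0 paralogues were called higher and 4 lower, and with STZ macrophages 0 higher and 3 lower, beside 23.1% and 22%, and 20.8% and 22.3%, of all genes.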

How the data were processed

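The authors deposited estimated counts per gene without normalization; 11% of the values are not whole, and they were rounded for testing. Reads were aligned to GRCm38, per the labels' protocols, and the submitters' processing notes name DESeq2; the aligner, counter and annotation release: not given in the sources used here. A second deposited table holds adjusted log2 values for 12236 genes (method of adjustment: not given in the sources used here); limma 3.58.1 tested it as an alternative only.

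The count model was edgeR 4.0.16 under R 4.3.3: filterByExpr by group (15781 genes), TMM scaling, 1 term per group and 1 for batch day over all 13 libraries, robust quasi-likelihood F tests and Benjamini-Hochberg adjustment over all genes tested of a comparison, with calls at an adjusted p below 0.05. The cells-alone libraries are all of day 1, so the day term of that model rests on the co-cultures. A second fit had 1 mean per group and day. The lone day 2 control library is assumed there to vary like the others. Each SE is the size of the log2 fold change divided by the root of its F. The procedure was run on simulated counts with the same spread for every gene and no difference between days. That run does not cover days or libraries that differ as they do here. Gene positions and exon lengths are from GENCODE. The 684 entries that share a symbol were kept separate, and 0 columns were unmatched.

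The members and lists were chosen with earlier results of these data known. From each pathway list, the genes named were those called between the macrophage groups, or else the 3 with the smallest p, and up to 3 more by mean level. Vhl, Ddit4, Ak4 and Fam162a were named outside this rule, after their values were seen. The most alike genes had a mean of at least 3 log2 CPM. Same-numbered libraries of the cells alone and control-macrophage groups correlated in their deviations (r = 0.242 to 0.474 in 4 of 4 pairs). For the replicate block, their numbers were taken to pair them, from the data alone. This is uncertain, since the highest r between different numbers was 0.591. Pairs with the STZ-macrophage group did not all pass 0.1. The main fit used no pairing, so its p-values are unpaired. Alternatives were other scaling (RLE, library totals), no filter, DESeq2 1.42.0, a GC correction, no day term, only the groups compared, a replicate block and libraries left out. Libraries carry no molecular identifiers, so a floor of 3 counts covers counting error only.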

Additional observations from a re-analysis of the deposited data

Results flagged for a closer look

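For 30 combinations of a member and a group, the highest and lowest library were compared with the rest by Dixon's criterion; 7 stood out. Chance alone marks about 1 in 20 groups nominally, but the co-culture groups mix batch days (3 of the 7 are the lone day 2 control library) and the members were selected on these values, so nothing is read from the number. Hif1a had 1 such library in each group: 112.1 CPM in cells-alone replicate 2, 176.2 in control-macrophage replicate 3, the day 2 library, and 718.8 in STZ-macrophage replicate 1. Ero1l had 28.26 CPM in control-macrophage replicate 3 and 92.34 in STZ-macrophage replicate 1. Kdm3a was low in control-macrophage replicate 3, at 57.66 CPM, and Ankrd37 was high in control-macrophage replicate 2, at 23.49 CPM. The part of batch day or library quality in these values was not tested.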

How the results depend on the processing

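Of 1120 member log2 fold changes under alternatives, 1064 moved by no more than the pooled SD of replicates in log2 CPM, 55 moved further and 1 reversed after a call: Ndrg1, STZ macrophages over cells alone, was -0.25 in the authors' adjusted log2 table. The cause was not tested for any value here. STZ over control macrophages, 51 genes, 1 member and 2 pathway genes were called. The counts were, in that order, 0, 0 and 0 with the replicate block (pairing not borne out for these groups), 19, 0 and 0 with no day term, 2698, 6 and 31 with only the 2 groups, 650, 5 and 10 by DESeq2, and 0, 0 and 0 without STZ-macrophage replicates 2 and 4, or (chosen after seeing the data) 1 and 5. The adjusted table gave 88 genes and 1 pathway gene; library totals, no filter and GC correction gave 2 members each. Leaving out 1 library gave 0 to 582 genes, 0 to 5 members and 0 to 8 pathway genes, each highest without cells-alone replicate 2 (members also without control-macrophage replicate 3); genes were at 0 without control-macrophage replicate 4 and without STZ-macrophage replicate 1 or 5.

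Within day 1 (34 genes, 2 members), the counts were 93 and 4 by RLE, 236 and 4 with no filter, 0 and 0 with the replicate block, 3365 and 10 with only 2 groups, 7 and 1 without STZ-macrophage replicates 2 and 4, 937 and 7 by DESeq2, 70 genes with GC correction, and 2 to 1269 and 0 to 7 without 1 library (lowest without STZ-macrophage replicate 1, highest without cells-alone replicate 2). Within day 2 (0 and 0), they were 14 genes by library totals, 92 and 1 with no filter, 2453 and 2 with only 2 groups, 1037 and 2 by DESeq2, and 0 to 448 and 0 to 2 without 1 library. STZ macrophages over cells alone (6807 genes, 7 members, 35 pathway genes), the replicate block gave 3476 genes and 22 pathway genes, omission of STZ-macrophage replicates 1 and 5 gave 3093, 4 and 20, and omission of 1 library 5137 to 8043, 6 to 9 and 31 to 42. Control macrophages over cells alone (7106, 5 and 34), omission of 1 library gave 5745 to 7760, 5 to 6 and 26 to 39, and the replicate block kept the counts within 1.5 times.

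Among the named pathway genes other than Vhl, which was not followed here, reversed log2 fold changes between macrophage groups were Elob -0.79 (GC correction) and -0.05 (no day term), Tax1bp1 -0.01 (no day term), and Bcl2 -0.47 and Ndrg2 -0.58 (without STZ-macrophage replicates 1 and 5). Arnt was 0.06 (library totals, and no filter), 0.02 (GC correction), 0.05 (only 2 groups), 0.59 (without STZ-macrophage replicates 1 and 5), 0.12 (adjusted table) and -0.38 to 0.10 without 1 library. Members changed sign there too: Egln1 was -0.1 with GC correction. Without STZ-macrophage replicates 1 and 5, Hif1a, Egln1, Bnip3l, Higd1a and Ero1l were negative. P4ha1 and Mif, control macrophages over cells alone, were -0.80 and -1.07 in the adjusted table. In the same comparison and table the members Egln3 and Ndrg1 were -1.61 and -2.38, against 1.9 and 0.16 in the main fit. Ndrg1 changed sign in 4 of 22 alternatives there and Ero1l in 11. STZ macrophages over cells alone, Egln1 and Ero1l were negative without STZ-macrophage replicates 1 and 5. Within day 2, Hif1a, Egln1, Egln3, Bnip3l and Ero1l changed sign in at least 1 alternative. The median over all genes, STZ over control, was -0.13 with TMM, -0.03 with RLE and 0.07 with library totals. Day 2 rests on 1 control library.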
